A study of Mus musculus with 6 samples.

Results

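The 35 genes described here mark neural progenitors and the regions of the neural tube and brain. They were taken by name from a count table of 55401 mouse genes, and each of the 35 symbols was found once. The table holds RNA-seq of whole E10.5 mouse embryos on a C57BL/6J background, with 3 WT and 3 *Mir483* 5C libraries. WT embryos were littermates with an unmodified *Igf2* locus. In 5C embryos, 5 extra tandem copies of the microRNA gene *Mir483* had been inserted at the endogenous *Igf2* locus, where *Mir483* lies in an intron. By the paper, chimeric males passed the array on, and *Mir483* is expressed with *Igf2* from the paternal allele. Which tissues expressed the array was not tested here. By the methods, 2 male embryos were pooled for each library. A whole embryo mixes all tissues, so a lower level can come from fewer neural cells or from less RNA per cell, and these cannot be told apart.

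The neural tube forms from the neural plate and is lined at this stage by dividing progenitors, most of which express SoxB1 factors (*Sox1*, *Sox2*, *Sox3*), the filament protein nestin (*Nes*) and Notch effectors of the Hes family. Sonic hedgehog from the floor plate and BMP and WNT signals from the roof plate set up dorsoventral domains, each known by a set of homeodomain and basic helix-loop-helix factors. Along the length of the tube, other transcription factors define the forebrain, the midbrain, the boundary between midbrain and hindbrain (the isthmus) and the hindbrain segments.

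The edited gene was checked first. *Mir483* (ENSMUSG00000070140; GRCm38 chromosome 7, 142654924 to 142654996, minus strand) had 11, 5 and 2 counts in WT and 85, 51 and 36 counts in 5C. Every 5C library lay above every WT library, with a log2 fold change of 3.05 ± 0.36 (SE) and an adjusted p of 0.169 in edgeR's quasi-likelihood test. Poly(A)-selected libraries do not measure the mature microRNAs, and the origin of these reads was not tested. The host gene *Igf2* measured 16.9, 8.41 and 17.1 CPM in WT libraries against 10.48, 10.08 and 9.75 CPM in 5C. Its log2 fold change was -0.48 ± 0.24 (SE) with overlapping genotypes. Overlap of its exons with other genes was not examined, so reads of *Igf2* may be missing from these counts. The array yields 2 mature microRNAs, printed here from RefSeq (GRCm38.p6) with the seed, bases 2 to 8, in capitals, because a match to the seed is the base for asking whether a patterning gene could be bound.
miR-483-3p: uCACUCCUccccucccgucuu
miR-483-5p: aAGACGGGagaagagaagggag

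Of the 35 genes, all with an annotated 3′ UTR, 2 carried the letters AGGAGTG, complementary to the seed of miR-483-3p, in the 3′ UTR of the longest coding transcript, and 0 carried CCCGTCT, complementary to that of miR-483-5p. Over the 13886 tested genes with an annotated 3′ UTR, 12.5% held the first motif and 3.44% the second, read on the transcript strand only. The 2 genes were *Otx1* and *Rax*. The median 3′ UTR length was 912 bases over the 35 genes and 1200 bases over all tested genes with a 3′ UTR. The *Otx1* match lay at chr11:21995642-21995648 on the minus strand, and it is shown with 10 bases on either side, the match in capitals.
*Otx1* site: ggctcgcggcAGGAGTGtgccccagcc

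Libraries held between 6357343 and 19151368 counts, so that 3 counts corresponded to between 0.157 and 0.479 CPM, where CPM are counts scaled to a common total after TMM (trimmed mean of M values) adjustment of the library totals. Every pair of the 6 libraries differed by more than sampling noise, with a chi-square per gene of at least 5.26. The share of other tissues differed between libraries. Yolk sac endoderm markers (9 genes, *Apob* and *Afp* among them) summed to 6534 CPM in WT replicate 1 and 1260 CPM in 5C replicate 3, against 142 to 470 CPM in the other 4 libraries. Transcripts of 4 Y-linked genes summed to 130 to 212 CPM in 4 libraries but to 4.12 CPM in WT replicate 2 and 0.0854 CPM in 5C replicate 2, which goes against the stated sex of the pools. Erythroid markers summed to between 8410 and 16476 CPM with overlapping genotypes. No sample was left out of the fit, and values without these libraries are given beside the genes they moved most or in the closing section.

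Markers of the neural lineage were present in every library. The 35 genes summed to 1151, 1197 and 1112 CPM in WT and to 1267, 1229 and 1139 CPM in 5C. The lowest 5C library therefore lay inside the WT range. Of the 35 genes, 15 had a mean above 10 CPM, 17 a mean of 1 to 10 CPM and 3 a mean under 1 CPM. In the fit, 34 of them passed the filter on low counts and were tested, of which 30 reached the filter's cutoff of 0.772 CPM in all 6 libraries. *Olig1*, *Nkx2-2*, *Gsx1* and *Gsx2* were tested although only 2 WT libraries reached it. *Egr2*, which marks hindbrain rhombomeres, was not tested, with 6, 4 and 1 counts in WT and 2, 2 and 10 counts in 5C.

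**Figure D1:**
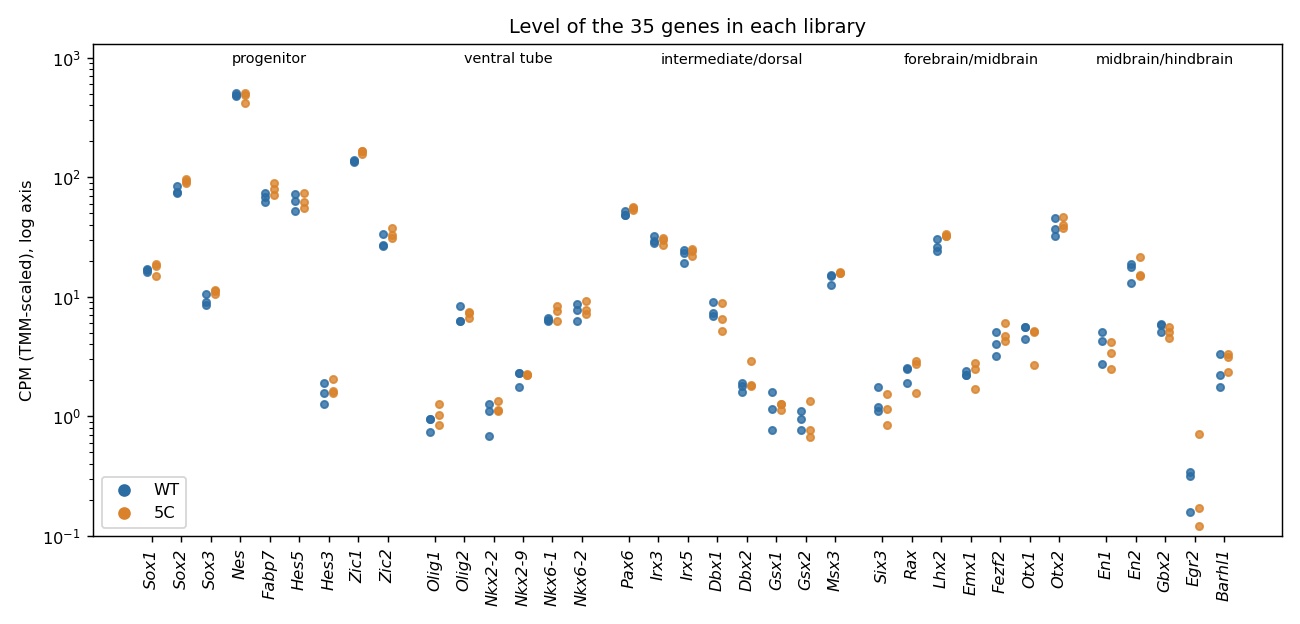
CPM of the 35 genes on a log axis, grouped by role, with 1 point per library (blue, WT; orange, 5C). *Nes* was the highest at 421 to 509 CPM, *Egr2* the lowest, and for most genes the genotypes overlap.

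To ask whether neural patterning differed in embryos with extra *Mir483*, 5C was compared with WT in 1 fit across all 16784 genes tested. A gene was called at a fold change over 1.5 together with an adjusted p under 0.05. Of the 34 genes tested 0 were called, against 0% of all genes tested, and DESeq2 also called 0 of them. The log2 fold change was above 0 for 27 genes and below 0 for 7, with a median of 0.11. Of all genes tested 49.3% were above 0, and their median was -0.0024. As a median over the 34 genes, log2 deviations from the mean of all libraries overlapped between genotypes. They were -0.0094, -0.0317 and -0.0429 in WT libraries and 0.1194, 0.0489 and -0.0247 in 5C. The pooled within-genotype SD of the library medians of these genes was 0.1161, as large as the median difference, and the genes share the same 6 libraries. The lowest value was -0.27 (*Otx1*) and the highest 0.33 (*Nkx2-2*), though the latter was 0.03 without WT replicate 1, so that 0 genes exceeded 1.5-fold, against 3.38% of all genes tested. Of the 34 genes, 4 had an unadjusted p under 0.05, against 6.02% of all genes tested. All 4 were higher in 5C, which is 11.8% of the 34 against 2.55% of all genes in that direction, and 0 were lower, against 3.47%. None of these differences held after correction over all genes, since edgeR's adjusted p was at least 0.781 for each of the 34.

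**Figure D2:**
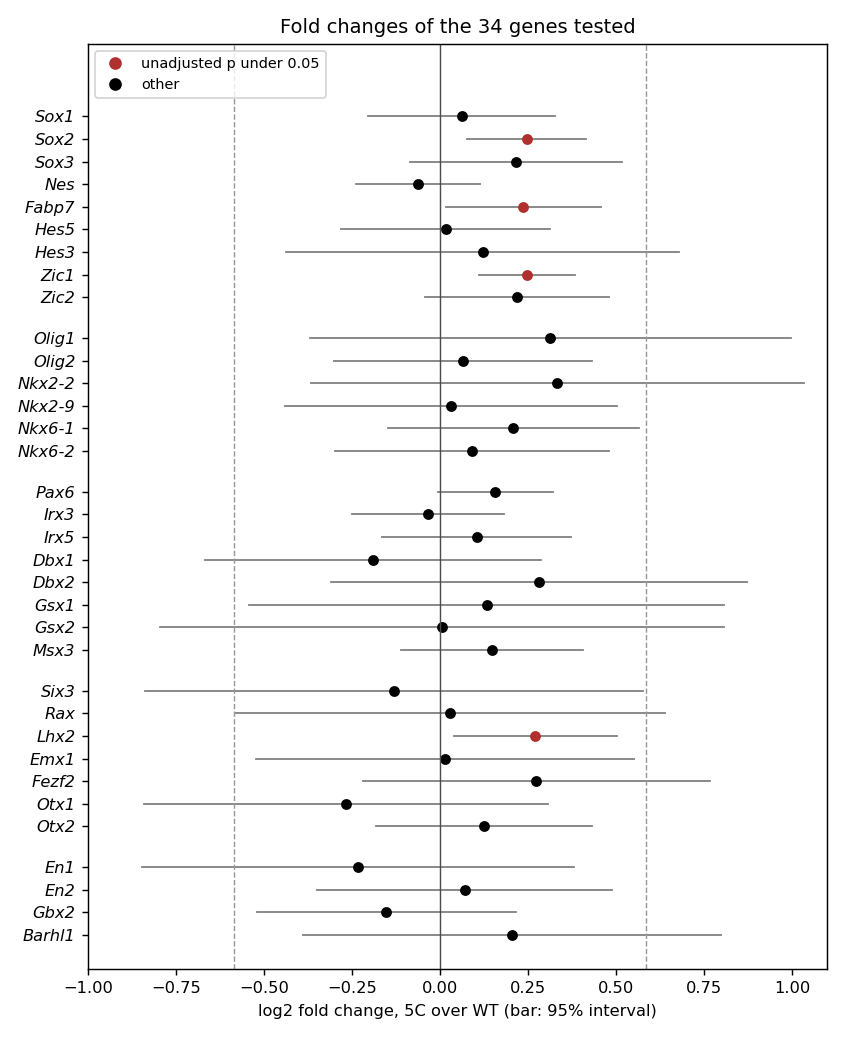
Log2 fold change of 5C over WT with its 95% interval for the 34 genes tested, from progenitor genes (top) to midbrain and hindbrain genes (bottom). Red points are the 4 genes with an unadjusted p under 0.05, and dashed lines mark 1.5-fold; the intervals of 21 genes stay between these lines.

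For 21 of the 34 genes the 95% interval of the difference lay within 1.5-fold in either direction. The other intervals reached further, as for *Nkx2-2*, where it ran from -0.37 to 1.03 on the log2 scale at 8 to 22 counts per library. They also included genes at moderate counts, such as *Otx1* with 35 to 107 counts per library and an interval from -0.84 to 0.31. For these 13 genes a difference of 1.5-fold lay inside the interval in at least 1 direction.

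The smallest p-values fell in the group listed as progenitor genes, though not in all of its markers. Of the 9 genes, 8 had a log2 fold change above 0, 3 had an unadjusted p under 0.05 and the median was 0.22. All 3 were higher in 5C, which is 33.3% of the group against 2.55% of all genes tested in that direction. Log2 fold changes were 0.06 for *Sox1*, -0.06 for *Nes* and 0.02 for *Hes5*. *Zic1* (GRCm38 chromosome 9, 91358058 to 91365810, minus strand), a zinc finger factor of dorsal neural tube, dorsal brain and somites, measured 139, 137 and 134 CPM in WT libraries against 156, 164 and 167 CPM in 5C. Its libraries did not overlap between genotypes, and the lowest 5C value stood above the highest WT value by more than the range within WT. The means were 137 ± 2.51 and 162 ± 5.92 CPM (SD, n = 3 each), a fold of 1.19. The log2 fold change was 0.25 with an SE of 0.06 and a 95% interval from 0.11 to 0.38. In edgeR the p was 0.00247 unadjusted and 0.781 adjusted.

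*Sox2* (chromosome 3, 34650405 to 34652461, plus strand), the SoxB1 factor that maintains progenitors and also marks foregut and sensory placodes, measured 74.2, 84.9 and 75.1 CPM in WT. In 5C it measured 89.4, 92.6 and 95.9 CPM, again above every WT library. Its log2 fold change was 0.25 with an SE of 0.08, and the means were 78.1 ± 5.92 and 92.7 ± 3.22 CPM (SD, n = 3 each). In edgeR the p was 0.00923 unadjusted and 0.781 adjusted. *Fabp7* (chromosome 10, 57784881 to 57788450, plus strand), the brain fatty acid binding protein of radial glia, measured 68.9, 73.5 and 61.9 CPM in WT libraries against 80.4, 89.6 and 71.5 CPM in 5C. Its genotypes overlapped, since 5C replicate 3 lay below WT replicate 2. The log2 fold change was 0.24 with an SE of 0.10 and an adjusted p of 0.781 (edgeR).

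**Figure D3:**
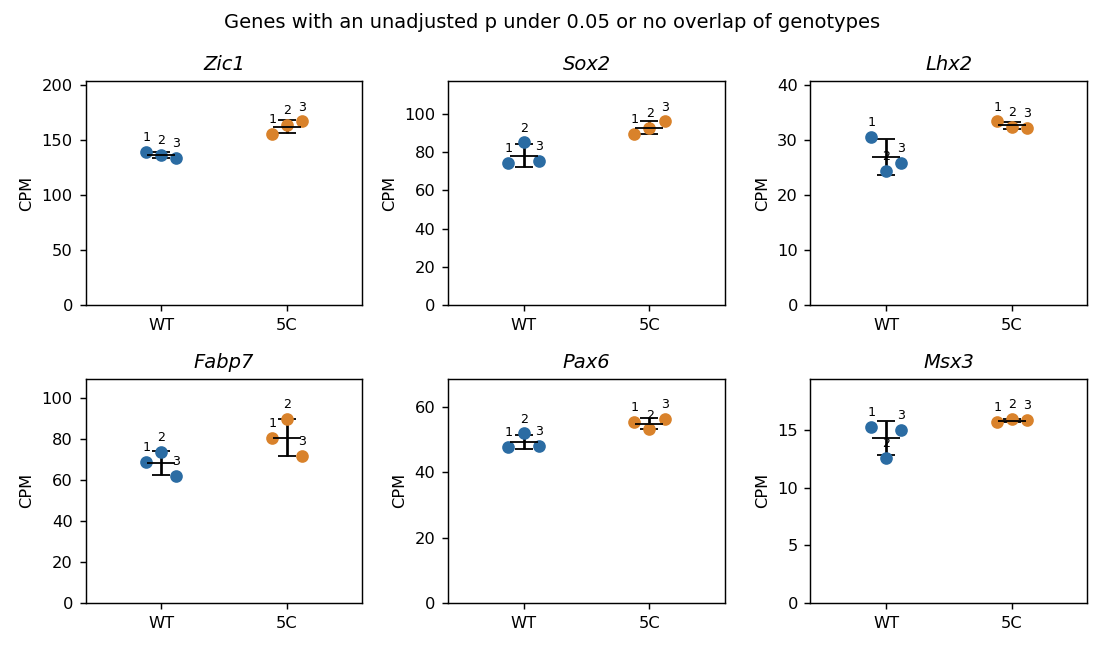
CPM in each library (numbered points), mean and SD for the 6 genes with an unadjusted p under 0.05 (*Zic1*, *Sox2*, *Lhx2*, *Fabp7*) or with genotypes that do not overlap (*Zic1*, *Sox2*, *Lhx2*, *Pax6*, *Msx3*). Axes start at 0, and the differences are fractions of the level, at most 1.21-fold.

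The most abundant progenitor gene did not show this pattern. *Nes* measured 488, 509 and 473 CPM in WT libraries against 501, 484 and 421 CPM in 5C. The values overlapped and 5C replicate 3 was the lowest of all. Its log2 fold change was -0.06 with a 95% interval from -0.24 to 0.11. The Notch effector *Hes5* was likewise close in both genotypes, at 52.0 to 73.0 CPM in WT and 55.5 to 73.1 CPM in 5C, although 31.8% of its exon bases lie under *Gm20421* on the opposite strand and the strand setting of the counting was not stated. *Sox1*, the SoxB1 gene most restricted to neural tissue, had a log2 fold change of 0.06 ± 0.12 (SE), and *Sox3*, X-linked, one of 0.22 ± 0.13 (SE). *Zic2*, a dorsal and forebrain midline factor, had a log2 fold change of 0.22 ± 0.12 (SE), with 33.3, 26.4 and 27.1 CPM in WT libraries against 37.3, 33.0 and 31.1 CPM in 5C. *Hes3*, a Hes factor of the isthmus, was found at 1.28 to 2.06 CPM over the libraries.

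Per kilobase of exon, with all annotated exons of a gene merged, *Nes* averaged 74.7 CPM per kb over the 6 libraries. Merged exons can be longer than a single transcript, so the order of genes on this scale depends on the annotation. *Fabp7* followed with 59.4, *Hes5* with 46.3, *Sox2* with 41.5 and *Zic1* with 26.2 CPM per kb. *Sox1* and *Sox3* were at 3.50 and 4.95 CPM per kb, so *Sox2* was the most abundant SoxB1 transcript in these embryos, in every library. Among regional genes the highest on this scale were *Irx3* (10.7 CPM per kb) and *Otx2* (9.40 CPM per kb). The lowest tested gene was *Six3* with 0.233 CPM per kb. *Pax6*, with 11694 merged exon bases, was at 4.45 CPM per kb, although its CPM were above those of *Irx3* and *Otx2* in every library.

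Ventral tube genes did not differ beyond their spread. All 6 had a log2 fold change above 0, from 0.03 to 0.33, and 0 had an unadjusted p under 0.05. *Olig2*, which specifies motor neuron progenitors, measured 6.30, 6.27 and 8.30 CPM in WT libraries against 7.45, 6.66 and 7.33 CPM in 5C, with every 5C library inside the WT range. *Nkx6-1*, a class II factor of the ventral tube, measured 6.35, 6.61 and 6.22 CPM in WT libraries against 6.30, 7.60 and 8.33 CPM in 5C. *Nkx6-2*, its paralog in the domain of ventral interneurons, measured 6.30, 8.67 and 7.82 CPM in WT libraries against 9.15, 7.17 and 7.69 CPM in 5C. Of its exon bases 12.9% lie under *Inpp5a* on the opposite strand.

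The other ventral tube genes were rarer. *Nkx2-2*, of the domain next to the floor plate, had 13, 13 and 8 counts in WT and 22, 13 and 16 counts in 5C. *Olig1*, which lies 41.1 kb from *Olig2* on chromosome 16, had 14, 11 and 6 counts in WT and 21, 12 and 12 counts in 5C. *Nkx2-9*, expressed beside the floor plate, was almost level at 2.13 ± 0.322 and 2.22 ± 0.0179 CPM (SD, n = 3 each). At these counts the intervals of *Nkx2-2* and *Olig1* reach down to -0.37 and up to 1.03 on the log2 scale. For *Nkx2-2* the log2 fold change lay between 0.0275 and 0.50 as libraries were left out, lowest without WT replicate 1.

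Among intermediate and dorsal genes, 2 of 8 had genotypes that did not overlap, both higher in 5C, and 0 had an unadjusted p under 0.05. *Pax6* (chromosome 2, 105668900 to 105697364, plus strand), a paired homeodomain factor of intermediate progenitors, forebrain and eye, measured 47.8, 51.9 and 48.0 CPM in WT. In 5C it measured 55.3, 53.1 and 56.2 CPM. The gap between the genotypes was small, 51.9 against 53.1 CPM, and the log2 fold change was 0.16 with a 95% interval from -0.0068 to 0.32 (unadjusted p 0.0584, adjusted p 0.781, edgeR). *Msx3*, a dorsal neural tube homeobox gene, measured 15.32, 12.62 and 14.996 CPM in WT libraries against 15.70, 15.97 and 15.87 CPM in 5C. Its 5C values were tight and WT replicate 2 stood lowest. For *Msx3* the log2 fold change was 0.15 ± 0.12 (SE), and 0.06 without WT replicate 2. Together with *Zic1*, *Sox2* and *Lhx2*, genotypes did not overlap for 5 of the 34 genes, or 14.7%, all higher in 5C, against 6.26% of all genes tested in that direction. For 0 genes were all 5C libraries below all WT libraries, against 5.1% of all genes tested.

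The remaining genes of this domain showed no separation. *Irx3*, an Iroquois factor, measured 32.3, 27.9 and 29.2 CPM in WT libraries against 29.6, 27.2 and 30.8 CPM in 5C. *Irx5*, which lies 556 kb away on chromosome 8, measured 19.1, 23.3 and 24.7 CPM in WT libraries against 25.3, 24.3 and 21.9 CPM in 5C. For both genes the genotypes overlapped. *Dbx1*, of the V0 interneuron domain, ranged from 6.95 to 9.02 CPM in WT and from 5.20 to 8.85 CPM in 5C. *Dbx2*, its neighbour domain's factor, lay between 1.595 and 1.89 CPM in 5 libraries and was 2.92 CPM in 5C replicate 3. *Gsx1* and *Gsx2*, of dorsal interneuron and ganglionic eminence progenitors, had between 7 and 22 counts in each library and log2 fold changes of 0.13 ± 0.30 and 0.0043 ± 0.36 (SE).

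Forebrain and midbrain genes were the most uneven between libraries. *Lhx2* (chromosome 2, 38339281 to 38369733, plus strand), a LIM homeodomain factor of forebrain and eye that is also used in limb buds, measured 30.5, 24.3 and 25.8 CPM in WT libraries against 33.3, 32.4 and 32.1 CPM in 5C, without overlap. The log2 fold change was 0.27 with an SE of 0.10, with means of 26.9 ± 3.25 and 32.6 ± 0.646 CPM (SD, n = 3 each). In edgeR the p was 0.0263 unadjusted and 0.781 adjusted, and without WT replicate 2 the unadjusted p was 0.0899 at a log2 fold change of 0.20. *Otx2*, which is required for forebrain and midbrain, measured 32.0, 45.6 and 36.5 CPM in WT libraries against 46.6, 40.1 and 37.4 CPM in 5C. These values overlapped, and WT replicate 1 was the lowest.

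*Otx1* (chromosome 11, 21994764 to 22002897, minus strand), the paralog of *Otx2* that carries the seed match shown above, measured 5.61, 4.46 and 5.58 CPM in WT libraries against 5.09, 5.21 and 2.71 CPM in 5C. Only 5C replicate 3 stood below the WT range. The log2 fold change was -0.27 with an SE of 0.26 and an unadjusted p of 0.322, and it was -0.02 without 5C replicate 3. *Rax*, the eye field factor with the other match, had a log2 fold change of 0.03 ± 0.27 (SE), and 27.4% of its exon bases lie under *Raxos1* on the opposite strand.

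5C replicate 3 was the lowest library for 4 of the 7 forebrain and midbrain genes: *Otx1*, *Rax*, *Emx1*, a dorsal telencephalon factor, and *Six3*, of the anterior neural plate. *Six3* had 21, 14 and 11 counts in WT and 19, 18 and 12 counts in 5C. *Fezf2*, of the forebrain, was instead lowest in WT replicate 3, with 4.04, 5.07 and 3.19 CPM in WT libraries against 6.06, 4.27 and 4.70 CPM in 5C. As a median over these 7 genes, 5C replicate 3 lay 0.34 below the mean of all libraries on a log2 scale, whereas 5C replicate 1 lay 0.24 above it. The difference between these libraries of 1 genotype was thus larger than the difference between genotypes, with a median log2 fold change of 0.03 for this group. 5C replicate 3 had more yolk sac endoderm markers than the other 5C libraries, while WT replicate 1, with the most, lay 0.05 above the mean in these 7 genes. Their part in the result was not tested.

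**Figure D4:**
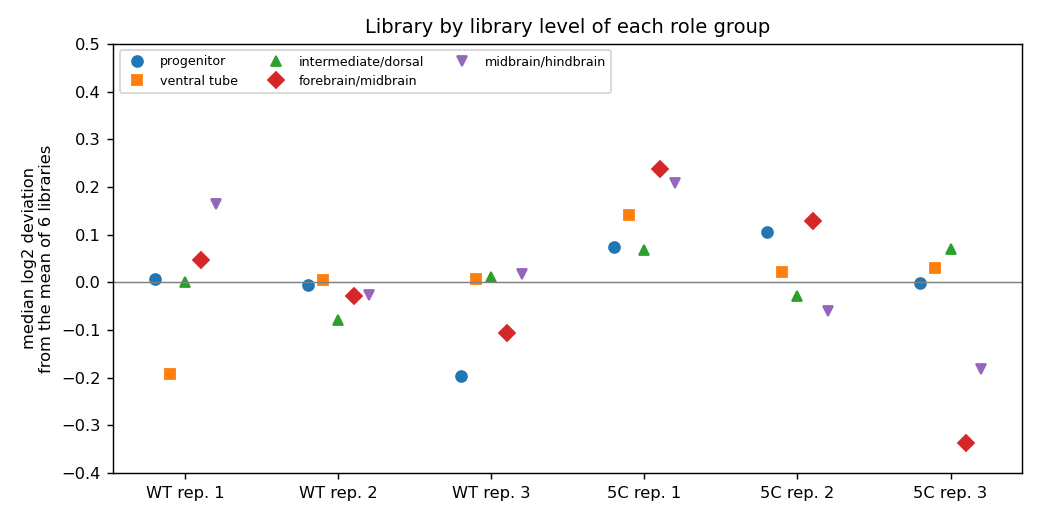
Median deviation of each role group from the mean of the 6 libraries, on a log2 scale of CPM with 0.5 added, for each library. 5C replicate 1 lies above 0 for all 5 groups, and the forebrain and midbrain group of 5C replicate 3 lies lowest at -0.34.

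In the isthmus and hindbrain group, 2 of the 4 tested genes had a log2 fold change above 0 and 0 had an unadjusted p under 0.05. *En2*, an engrailed factor of midbrain and anterior hindbrain, measured 13.0, 18.9 and 17.7 CPM in WT libraries against 21.5, 15.1 and 14.8 CPM in 5C, with both extremes in replicate 1. *En1*, its paralog that is also expressed in limb ectoderm and ventral interneurons, measured 4.25, 2.75 and 5.11 CPM in WT libraries against 4.18, 3.42 and 2.49 CPM in 5C. *Gbx2*, which sets the hindbrain side of the isthmus, measured 5.82, 5.92 and 5.11 CPM in WT libraries against 5.58, 5.12 and 4.56 CPM in 5C. Of its exon bases 43.5% lie under *D130058E05Rik* on the opposite strand. *Barhl1*, of the dorsal hindbrain and diencephalon, had a log2 fold change of 0.20 ± 0.26 (SE), which was 0.52 without WT replicate 1 and 0.06 without WT replicate 3.

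Over all groups, 5C replicate 1 held the highest value for 13 of the 34 genes and the lowest for 1. WT replicate 3, the library with the fewest counts, held the lowest for 10 and 5C replicate 3 for 9. The 4 genes at an unadjusted p under 0.05 depended on single libraries in part: *Zic1* and *Sox2* alone were left without WT replicate 3, without 5C replicate 1 or without 5C replicate 2. They were also the only 2 without WT replicate 2 and 5C replicate 2, the pools low in Y-linked transcripts. The share of all genes at an unadjusted p under 0.05 moved as well, from 6.02% with all libraries. It was 5.11% without WT replicate 3, 8.66% without 5C replicate 1 and 2.62% without 5C replicate 2. Without both replicate 2 pools it was 5.11%, and without WT replicate 1 and 5C replicate 3 it was 4.71%. Without WT replicate 1 and 5C replicate 3, the libraries highest in yolk sac markers, 5 genes passed, *Zic1*, *Fabp7*, *Lhx2*, *Zic2* and *Barhl1*, and *Sox2* did not. *Zic1* had an unadjusted p under 0.05 in all 16 alternatives and *Sox2* in 15 of 16, and over these fits the log2 fold change lay between 0.23 and 0.28 for *Zic1* and between 0.18 and 0.31 for *Sox2*.

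These genes were richer in GC than most. The longest coding transcript had a median GC content of 58.0% over the 34 genes against 49.4% over all genes tested, and 29 of the 34 lay above that median. Across all 16770 genes with a value, log2 fold change was lower at higher GC content, with a Spearman rho of -0.312, given as a description since genes share the same 6 libraries. With offsets fitted on GC content in each library, the median log2 fold change of the 34 genes was 0.17 in place of 0.11, and 29 in place of 27 were above 0. It was 0.18, over 1.5 times the value without either, when the replicate number was a block as well. Over all genes tested the median was 0.0183 with the offsets alone, in place of -0.0024. Given the trend over all genes, a rise for genes rich in GC follows from the way the offsets were fitted. With the offsets alone, 5 genes had an unadjusted p under 0.05, among them *Pax6* and *Zic2* but not *Fabp7*, and again 0 were called. Of all genes tested, 4.92% had an unadjusted p under 0.05 in that fit.

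**Figure D5:**
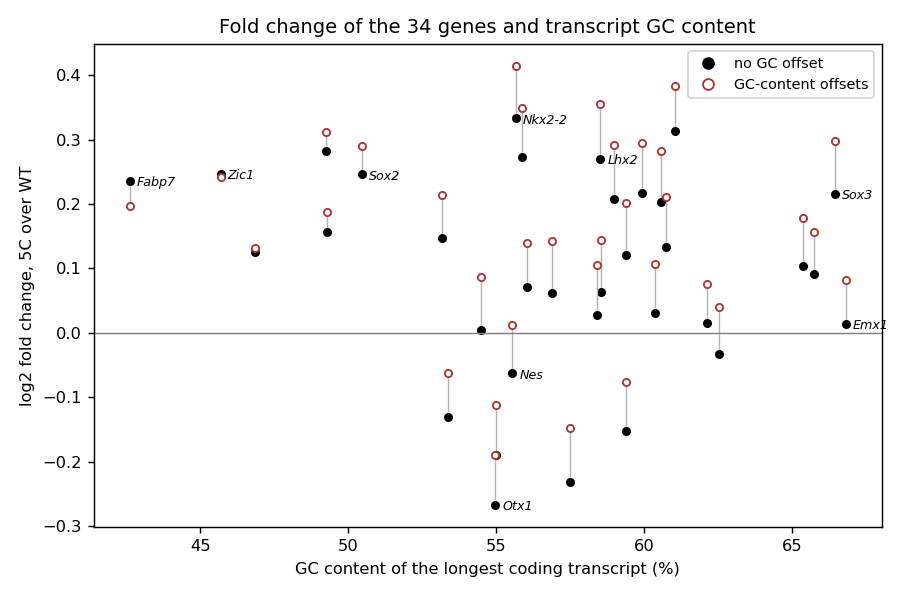
Log2 fold change of the 34 genes against transcript GC content, without (filled) and with (open) GC-content offsets. With the offsets 32 of the 34 genes move up, while *Fabp7*, which has the lowest GC content at 42.6%, moves down and *Zic1* hardly moves (0.25 to 0.24).

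Related genes outside the list were read from the same fit. Of 34 other patterning factors 32 were tested, and 18 had a log2 fold change above 0, with a median of 0.03. Of the 32, 4 had an unadjusted p under 0.05, all higher in 5C, which is 12.5% against 2.55% of all genes tested in that direction. The 3 with the smallest p, all higher in 5C with an unadjusted p under 0.05, were *Dmrta2*, of the cortical hem and dorsal telencephalon, and the POU factors *Pou3f2* and *Pou3f3*, with log2 fold changes of 0.41, 0.18 and 0.21. *Dmrta2* measured 10.3, 8.33 and 9.09 CPM in WT libraries against 14.1, 12.2 and 10.7 CPM in 5C, without overlap. Of 10 patterning signals, the ligands and netrin made by the organizing centres, 6 were above 0 and 0 had an unadjusted p under 0.05. *Shh* was at 15.2 and 16.4 CPM, and *Fgf8*, the isthmus signal, at 5.04 and 5.98 CPM (means of WT and 5C). None of these genes was called.

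Markers of other tissues were read beside the neural genes. Of 13 neuron markers 10 were above 0, and their median log2 fold change was 0.09. For 3 of them, all higher in 5C, the unadjusted p was under 0.05, which is 23.1% against 2.55% of all genes tested in that direction. All 6 heart markers were below 0, 3 with an unadjusted p under 0.05, against 3.47% of all genes tested in that direction. Their median was -0.23, with summed levels of 449, 588 and 467 CPM in WT against 401, 381 and 414 CPM in 5C. Mesoderm markers had 3 of 7 above 0 and a median of -0.02, and neural crest markers 4 of 5 and a median of 0.003. All 9 yolk sac endoderm markers were below 0 with a median of -2.14, and WT replicate 1 held most of their counts. Trophoblast and decidua markers summed to 9.90 to 45.9 CPM, with overlapping genotypes and 3 of 6 genes tested. The part of these tissues in the values of the neural genes was not tested.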

How the data were processed

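The authors prepared poly(A)-selected, strand-specific libraries from total RNA and sequenced short single-end reads. Per the labels and methods, they aligned them with STAR to GRCm38 and deposited raw counts per Ensembl gene, without normalization or filtering. Which strand column of STAR's counts was used is not given in the sources used here. All 6 columns matched a sample and 55141 of 55401 identifiers were found in GENCODE M21 (GRCm38), which gave symbols, positions, 3′ UTRs and GC content. The members and lists, the latter from marker knowledge, were chosen with earlier results of these data known.

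Counts were analysed in edgeR 4.0.16 with filterByExpr, TMM scaling and a two-sided quasi-likelihood F-test (the legacy form, with genotype as the only term), with Benjamini-Hochberg adjustment over all 16784 genes tested. The SE is the size of the log2 fold change divided by the square root of F. For 4 rare members edgeR raised the p to a Poisson bound. Totals of 6357343 to 19151368 counts set the precision, and the 3-count floors cover counting error only. Replicates were separate pools of embryos, and p-values measure the spread between these pools. Named were all members, *Mir483* and at most 3 genes of each other list, those with the smallest p. *Shh*, *Fgf8*, *Apob* and *Afp* were named after their values were seen. Methods were tested on simulated data. Alternatives were other scalings, filters, DESeq2 1.42.0, the replicate block, GC-content offsets and libraries left out. One result is not reported here.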

Additional observations from a re-analysis of the deposited data

How the results depend on the processing

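The count of called members was 0 in every alternative run, and so was the number lower in 5C at an unadjusted p under 0.05. Over all genes the count of 0, with 1011 at an unadjusted p under 0.05, became 319 without a count filter and 11 with DESeq2. Leaving out libraries gave 0 to 2 such genes, with the 2 found without WT replicate 1 and 5C replicate 3. It gave 2 to 5 members with an unadjusted p under 0.05, while 2.62% to 10.4% of all genes tested had one. In those fits 21 to 27 members were above 0 and the median lay between 0.08 and 0.15.

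With the replicate block 0 members were called, 5 had an unadjusted p under 0.05, 26 were above 0 and the median was 0.11. Of all genes tested, 4.66% had an unadjusted p under 0.05 with the block. With the block and GC-content offsets the median of the members was 0.18. Same-numbered libraries deviated from their genotype means with correlations of -0.174, 0.202 and -0.166. Both replicate 2 pools were low in Y-linked transcripts. With 3 libraries per genotype, these values cannot show whether same-numbered pools shared a litter or batch, which was not tested.

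Of the 34 members, some changed sign. *Otx1*, *En1* and *Dbx1*, the members lowest in the fit of all libraries, did so in 1 fit only. That fit was the one without WT replicate 1 and 5C replicate 3. *Gsx2* was -0.0011 under relative log expression scaling, -0.011 with DESeq2, -0.11 with the block and -0.033 with the block and GC-content offsets. With these offsets *Nes* was 0.012 and *Irx3* 0.040, and with the block added they were 0.012 and 0.036. Leaving out libraries moved the log2 fold change between -0.0029 and 0.18 for *Sox1*, -0.11 and 0.0081 for *Nes*, -0.099 and 0.15 for *Hes5*, -0.053 and 0.30 for *Hes3*, -0.0061 and 0.18 for *Olig2*, and -0.064 and 0.090 for *Nkx2-9*. The values lay between -0.045 and 0.28 for *Nkx6-2*, -0.082 and 0.036 for *Irx3*, -0.006 and 0.17 for *Irx5*, -0.42 and 0.12 for *Dbx1*, -0.11 and 0.30 for *Gsx1*, and -0.37 and 0.22 for *Gsx2*. They lay between -0.39 and 0.052 for *Six3*, -0.14 and 0.32 for *Rax*, -0.15 and 0.25 for *Emx1*, -0.52 and 0.065 for *Otx1*, -0.46 and 0.059 for *En1*, and -0.13 and 0.27 for *En2*. Without a change of sign they lay between 0.0275 and 0.50 for *Nkx2-2*, 0.029 and 0.65 for *Barhl1*, 0.012 and 0.41 for *Dbx2*, 0.0023 and 0.30 for *Otx2*, 0.11 and 0.54 for *Fezf2*, and 0.056 and 0.21 for *Msx3*. The causes were not tested. The fits without replicate 2 of both genotypes, and without WT replicate 1 and 5C replicate 3, were chosen after seeing the data. They set several of the range ends above, such as -0.52 for *Otx1*, 0.50 for *Nkx2-2* and 0.65 for *Barhl1*.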

Other observations

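Neuron markers were read from the same whole-embryo libraries, which do not separate neurons of the neural tube from neurons elsewhere. *Elavl4*, a neuronal RNA-binding protein, measured 59.1, 56.3 and 58.6 CPM in WT libraries against 63.7, 79.4 and 73.1 CPM in 5C. *Stmn2*, a growth cone protein, measured 43.8, 44.7 and 38.6 CPM in WT libraries against 48.3, 52.6 and 49.6 CPM in 5C. *Neurod1*, a differentiation factor, measured 18.05, 15.54 and 18.19 CPM in WT libraries against 18.48, 20.83 and 23.71 CPM in 5C. For 6 of the 13 markers the 5C libraries all lay above the WT libraries, against 6.26% of all genes tested. Their log2 fold changes were 0.31, 0.24 and 0.28 for the 3 named genes, and none was called (adjusted p 0.781, edgeR's quasi-likelihood test). *Myh6*, the atrial myosin with the smallest p among the heart markers, measured 61.1, 86.5 and 72.3 CPM in WT libraries against 48.9, 39.2 and 33.1 CPM in 5C.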
